A study of Triticum aestivum with 42 samples.

Results

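Crown and leaf of the winter wheat variety Harnesk were compared on 12 Affymetrix Wheat Genome arrays, taken by their labels from the 42 arrays of the series. There were 6 crown and 6 leaf arrays, with 2 biological replicates of each tissue at 3, 5 and 9 weeks after germination. Until 3 weeks the growth cabinets ran at 16°C in the day and 14°C in the night, with a 14 h day and a light level (PAR) of 280. Temperature, day-length and light were then lowered in steps, so that at 5 weeks the cabinets gave 14°C and 10°C, a 12 h day and PAR 185. At 9 weeks they gave 8°C and 4°C, a 9 h day and PAR 95. Week is therefore age, cold, day-length and light at once, and these cannot be told apart within Harnesk. The crown samples held the shoot apex with some of the stem below it, the vascular transition zone and the bases of immature leaves, and each RNA came from pooled plants. All plants were of 1 variety, and the labels name no transgene or mutation.

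The crown is the part of a cereal plant from which leaves, tillers and later the ear are formed, and its survival decides whether a winter wheat outlives the cold. Its apex and leaf bases hold dividing and expanding cells, which need new histones for replicated DNA and tubulins for the spindle and for the microtubules that guide wall growth. The mature leaf blade is made mostly of green mesophyll cells, whose chloroplasts carry the light reactions, the Calvin cycle and, with peroxisomes and mitochondria, photorespiration. In winter wheat prolonged cold makes the apex competent to flower, and MADS-box transcription factors are among the genes that take part.

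A probe-set is the group of short probes that reads 1 transcript or a few similar ones. Each deposited value is a ratio of its signal to a median for the same probe-set. A value of 1 is that median and not a moderate level of expression, and it can be the level of the lower tissue. Levels of different genes cannot be set against each other. A probe-set is called higher or lower in crown where the adjusted p was below 0.05 and the change at least 2-fold. Calls are over all weeks where no week is named. Of 61179 probe-sets tested, 1273 have a gene symbol in the annotation, for 771 genes. Of these, 102 genes have a name of known meaning, and symbols of the form LOC with a number are printed without a role. In tissue as a whole, fewer cells of a type and less RNA per cell cannot be told apart.

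The 12 arrays fell apart by tissue. Rank correlation over all probe-sets was 0.81 to 0.85 between replicates, 0.57 to 0.85 within crown and 0.59 to 0.84 within leaf. Between a crown and a leaf array it was -0.65 to -0.44. These are correlations of ratios to each probe-set's median, which take out the level that the tissues share. A negative value therefore does not mean that genes strong in crown are weak in leaf in general. The 9-week arrays stood somewhat apart in both tissues, and those of crown had 0.57 to 0.63 with the earlier crown arrays. The first principal component held 84.9% of the variance and the second 6.54%. On the second, leaf arrays lay at 92.6 and 86.7 at 9 weeks and at -68.3 to -18.7 earlier. Crown arrays lay at 12.2 and 9.43 at 9 weeks and at -11.2 to -4.91 earlier. The interquartile range of the log2 values was 0.34 to 0.51 in crown and 0.54 to 0.86 in leaf, narrowest at 9 weeks in both tissues. The gap between 3′ and 5′ probes of 7 control transcripts was -0.01 to 0.16 log2 in crown and -0.11 to 0.17 in leaf. Each probe-set had been divided by its own median. This gap therefore compares the arrays in RNA quality and does not show how good the RNA was. The median over all probe-sets of the log2 difference crown minus leaf was -0.16, against which the differences of single genes are to be read.

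Over all weeks 15784 probe-sets (25.8%) were called. Of the probe-sets tested, 9835 (16.1%) were higher and 5949 (9.72%) lower in crown. With a limit of 5-fold, 3056 (5.00%) were higher and 1985 (3.24%) lower. At 3 weeks 11313 (18.5%) were higher and 7576 (12.4%) lower in crown. At 5 weeks 10848 (17.7%) were higher and 6551 (10.7%) lower. At 9 weeks 7506 (12.3%) were higher and 5907 (9.66%) lower. Differences called in the same direction at all of the 3 weeks numbered 6754 (11.0%) higher and 3750 (6.13%) lower in crown. These made up 68.7% of the probe-sets called higher over all weeks and 63% of those called lower. A further 6046 probe-sets were called at 2 of the 3 weeks, 3035 at 3 weeks alone, 1444 at 5 weeks alone and 1576 at 9 weeks alone. Among the 1273 probe-sets with a symbol, 342 (26.9%) were higher and 222 (17.4%) lower over all weeks, and 247 and 170 held at every week. Probe-sets with a symbol were thus called more often than the array as a whole, in both directions.

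**Figure D1:**
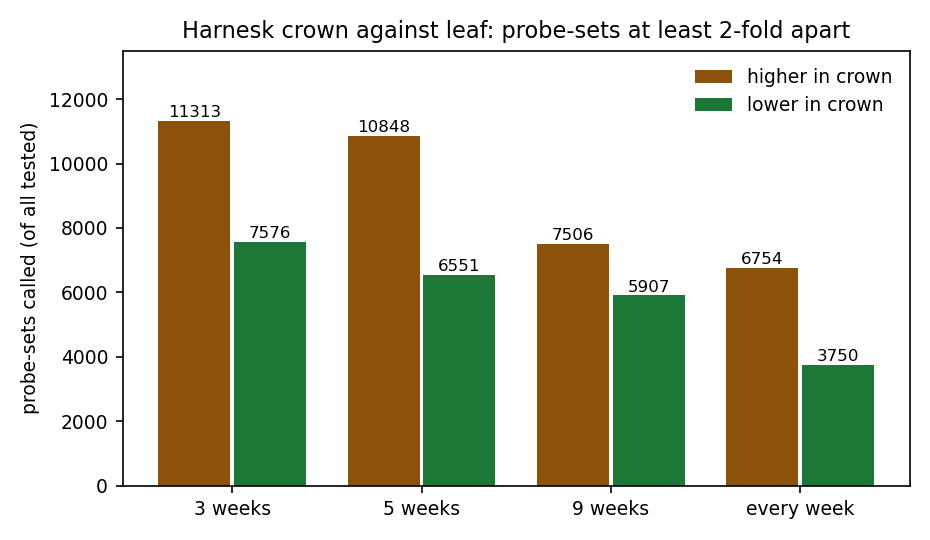
Number of probe-sets called higher (brown bars) and lower (green bars) in Harnesk crown than in leaf at 3, 5 and 9 weeks after germination, and in the same direction at all of these weeks, of 61179 tested. Calls higher in crown numbered 11313 at 3 weeks and 7506 at 9 weeks.

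The tissue labels were checked against defining markers. Of the green-leaf markers with a probe-set, PRK, FBP, OEE1, OEE2, petC and CAT1 were each lower in crown at every week by at least 1 probe-set. Of the markers of dividing cells, histones H2A and H2B and most tubulins were higher in crown at every week. COMT1, which methylates lignin precursors and was the 1 vascular marker found, had a difference of 0.78 and was not called over all weeks, though it was at 3 weeks (1.06). Grain storage proteins, which neither tissue should make, cannot serve as a check of absence, since each value is a ratio to the probe-set's own median. No annotated probe-set was found here for KNOTTED1-like genes, cyclins, PCNA, the small subunit of Rubisco, the light-harvesting proteins or the sucrose transporter SUT1, so the apical meristem itself has no marker in these values.

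Histones had the largest median difference of the lists and, with H2A-9, the largest difference towards crown among genes with a symbol. The list held 18 probe-sets for 5 genes of histones H2A and H2B, which package DNA in nucleosomes. Of these, 17 were higher in crown and 17 held at every week, where the array had 16.1% and 11.0%. The list's median difference was 7.3 log2, where the median of all probe-sets was -0.16. H2A-9 had 6.98 and 7.342 in crown at 3 weeks, 6.866 and 7.276 at 5 weeks and 5.647 and 5.355 at 9 weeks. In leaf it had 0.018 and 0.021 at 3 weeks, 0.02 and 0.034 at 5 weeks and 0.014 and 0.022 at 9 weeks. Every crown array lay above every leaf array by a wide margin, and the 9-week crown arrays were the lowest of the crown. The difference was 8.30 ± 0.15 log2 (SE) with limma (adjusted p = 3.7e-14), and 8.52, 8.08 and 8.29 at 3, 5 and 9 weeks. The 7 probe-sets of wcH2B-8 differed by 6.07 to 7.87, and H2A-2 by 6.60, 6.48 and 6.43 at the 3 weeks. Crown arrays lay between 9.65 and 11.9, and leaf arrays between 0.102 and 0.139, in H2A-2.

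Not all histone probe-sets were alike. The probe-sets of wcH2B-6 differed by 2.92 and 2.64, much less than those of wcH2B-8. Crown levels of wcH2B-6 were 3.11 to 6.05, against 0.458 to 0.965 in leaf, in the first of its probe-sets. Of H2A-3, 1 probe-set was higher in crown by 7.23 ± 0.12 (adjusted p = 1.6e-14), whereas the other was not called, at -0.37. Histone genes are near-identical copies, and many of these probe-sets are of the kind that can cross-hybridise, so the 17 do not stand for 17 separate transcripts.

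Tubulins followed. The list of the cytoskeleton and cell expansion had 13 probe-sets for 8 genes, with a median difference of 2.14. Of the 13, 9 were higher in crown, 0 were lower and 9 higher ones held at every week. The array had 16.1%, 9.72% and 11.0% in the same order. The 4 probe-sets of the beta-tubulin Tubb5 differed by 4.08 to 4.67. For tubb2 crown arrays had 1.796 and 1.736 at 3 weeks, 1.617 and 1.718 at 5 weeks and 1.815 and 1.781 at 9 weeks. Its leaf arrays had 0.304 and 0.3 at 3 weeks, 0.165 and 0.178 at 5 weeks and 0.062 and 0.07 at 9 weeks. The crown was level over the weeks while each later leaf sample was lower, so that the tissue difference was 2.55 at 3 weeks, 3.28 at 5 weeks and 4.77 at 9 weeks. That change between 3 and 9 weeks was 2.22 ± 0.17 (adjusted p = 4.5e-06), and for tubb1 it was 1.48 ± 0.18 (adjusted p = 0.00012). The beta-tubulin tubb3 and an alpha-tubulin probe-set of TUBA were higher in crown by 2.14 and 2.11, and the wall-loosening enzyme XTH by 1.77 ± 0.10 (adjusted p = 3e-09). XTH arrays had 1.04 to 2.35 in crown and 0.344 to 0.689 in leaf, and both tissues were lowest at 9 weeks. Not called over all weeks were Tubb4, the second TUBA probe-set and both probe-sets of Profilin-1, an actin-binding protein, at -0.31 to 0.62. This TUBA probe-set was higher in crown at 3 weeks, by 1.24. Its change between 3 and 9 weeks was towards leaf, at -1.41 ± 0.25 (adjusted p = 0.00149 with limma). For tubb3 the difference was 2.45 at 3 weeks and 1.67 at 9 weeks, a change that was not called. In the list 3 probe-sets moved towards crown and 1 towards leaf.

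Translation genes differed less. Of 9 probe-sets for 7 genes, 7 were higher in crown, 1 was lower and 4 higher ones held at every week. The array had 16.1%, 9.72% and 11.0% in the same order, and the median of the list was 1.28. The initiation factor subunit eIF-2-beta was 1.59 to 2.24 in crown and 0.358 to 0.606 in leaf, with no overlap. Its difference was 2.53 at 3 weeks, 2.5 at 5 weeks and 1.43 at 9 weeks, and 2.15 ± 0.16 over all (adjusted p = 5.5e-08). The cap-binding protein NCBP (1.71), both TEF1 probe-sets for an elongation factor (1.56 and 1.51), the initiation factors Eif4B (1.28) and eIF-4E-1 (1.11) and 1 probe-set of the ribosomal protein gene RPS29 (1.01) were also higher. For each of these genes the difference at 9 weeks was smaller than at 3 weeks. For Eif4B crown levels were 1.15 to 1.31, while leaf levels were 0.325 and 0.314 at 3 weeks and 0.72 and 0.702 at 9 weeks. RPL9, also a ribosomal protein gene, went the other way, at 0.74 to 1.2 in crown and 2.55 to 5.84 in leaf, a difference of -1.97 ± 0.22 (adjusted p = 3.1e-06).

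**Figure D2:**
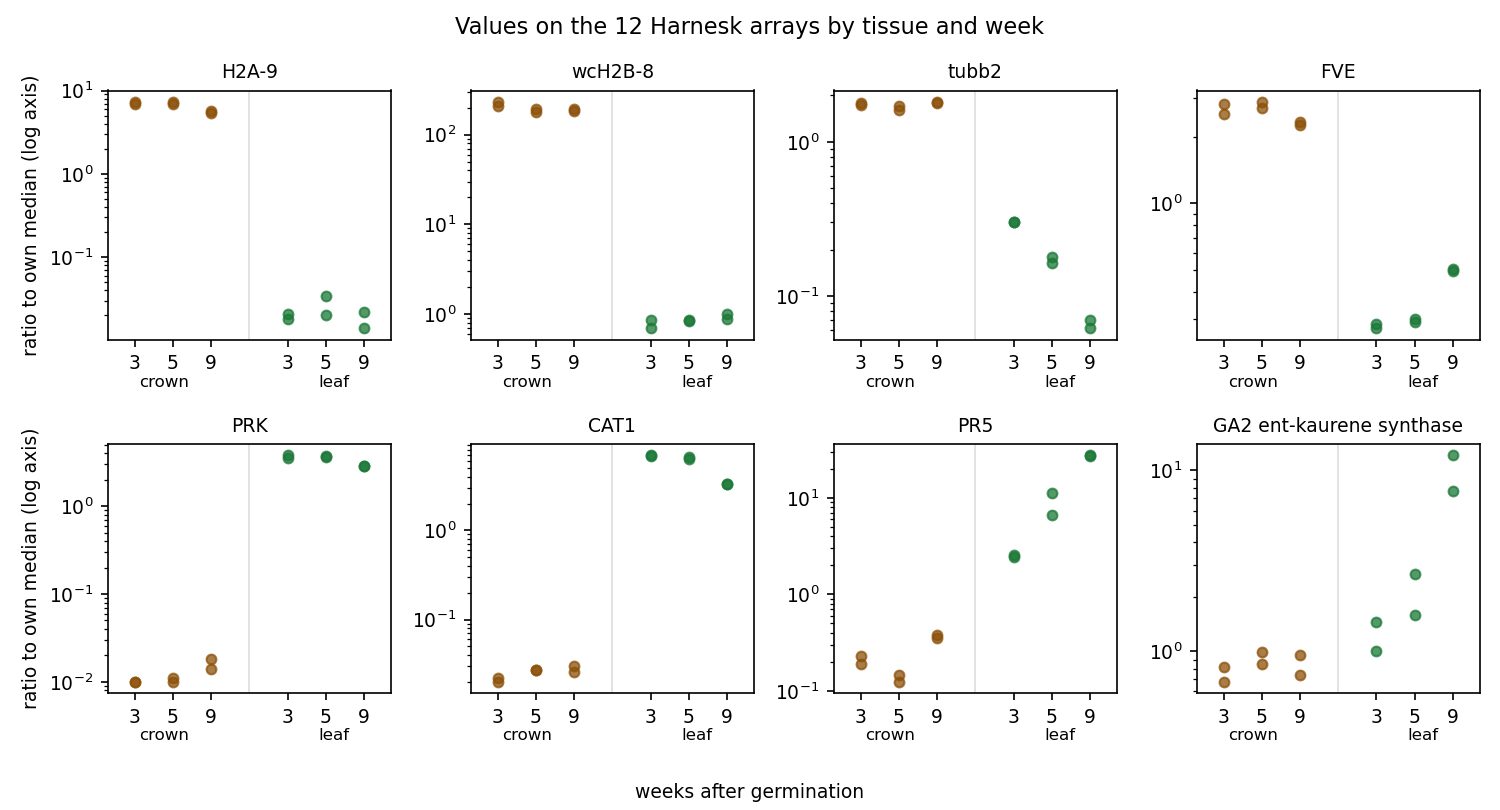
Deposited values (ratio to the median of the probe-set, log axis) of 8 genes on the 12 Harnesk arrays, crown (brown points, left of each panel) and leaf (green points, right) at 3, 5 and 9 weeks, each point 1 array. Crown and leaf do not overlap in any panel; for tubb2, PR5 and ent-kaurene synthase the leaf values move apart from the crown with the weeks.

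Photosynthesis genes were the counterpart. Of 5 probe-sets for 3 genes of photosystem II and electron transport, 4 were lower in crown and 4 held at every week. The array had 9.72% and 6.13%, and the median of the list was -5.07. The TaAffx probe-set of OEE2, an extrinsic protein of the oxygen-evolving complex of photosystem II, had 0.056 and 0.063 in crown at 3 weeks, 0.072 and 0.085 at 5 weeks and 0.088 and 0.082 at 9 weeks. Leaf arrays had 5.597 and 5.856 at 3 weeks, 4.797 and 4.168 at 5 weeks and 2.94 and 2.915 at 9 weeks. Leaf values were lowest at 9 weeks and crown values lowest at 3 weeks, and the tissues stayed far apart. The difference was -5.84 ± 0.19 (adjusted p = 9.6e-12), and the other OEE2 probe-set gave -5.07. OEE1, of the same complex, differed by -3.53 ± 0.17 (adjusted p = 5.6e-10), and petC, the iron-sulphur protein of the cytochrome b6f complex, by -5.10 ± 0.17 (adjusted p = 1.4e-11). The second petC probe-set was not called, at -0.19, with all arrays of both tissues between 0.864 and 1.197.

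The Calvin cycle list had 32 probe-sets for 4 genes, and 28 of them are for rbcl, the plastid gene for the large subunit of Rubisco. In the list 13 probe-sets were lower in crown, 1 was higher, and 12 lower ones and the higher one held at every week. Over the array 9.72% were lower and 16.1% higher, and 6.13% and 11.0% were so at every week. Phosphoribulokinase PRK, which remakes the acceptor of carbon dioxide, had 0.01, 0.01, 0.01, 0.011, 0.014 and 0.018 in crown and 2.89 to 3.79 in leaf. The value 0.01 is the lowest in the table, reached on 3 crown arrays, so the size of the difference, -8.17 ± 0.16 (adjusted p = 6.3e-14), is not well bounded. FBP, a fructose bisphosphatase, lay between 0.035 and 0.083 in crown and between 3.21 and 5.22 in leaf. The second FBP probe-set, at -0.69 over all weeks, was called at 3 weeks alone (-1.49). Phosphoglycerate kinase Pgk-1 was steadier, at 0.187 to 0.215 in crown and 2.86 to 3.96 in leaf, with differences of -4.29, -4.25 and -3.86 at 3, 5 and 9 weeks.

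The rbcl probe-sets disagreed with each other. Of 28 for this gene, 10 were lower in crown by 1.16 to 6.02 on the log2 scale, 17 were not called and 1 was higher by 1.16 ± 0.11 (adjusted p = 7.8e-07). The probe-set that was higher had 1.28 to 1.74 in crown and 0.558 to 0.848 in leaf. The most different one had 0.046 to 0.088 in crown and 2.37 to 5.81 in leaf. All but 3 of the 28 are from the part of the array designed on TaAffx sequences, and which strand or copy each reads is not given in the sources used here, so the direction of a single rbcl probe-set is uncertain.

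Most genes that deal with hydrogen peroxide and other oxidants were lower in crown. Catalase CAT1, which breaks down the peroxide that photorespiration forms, had 0.022 and 0.02 in crown at 3 weeks and 0.03 and 0.026 at 9 weeks. In leaf it had 6.938 and 6.784 at 3 weeks and 3.299 and 3.316 at 9 weeks. The tissues did not overlap, and the difference was -8.35, -7.90 and -6.89 at the 3 weeks. The second CAT1 probe-set differed by -1.41 ± 0.18 (adjusted p = 1.1e-05) and was not called at 9 weeks, at -0.83. In the oxidative stress list 7 of 9 probe-sets were lower in crown and 6 held at every week, where the array had 9.72% and 6.13%. Its median was -2.10. The 4 Prx1 probe-sets differed by -5.13 to -1.75 and the 3 of GSTZ1, a glutathione transferase, by -3.49 to -1.82. Of Prx1 the crown was 0.113 to 0.254 and the leaf 3.44 to 7.08 in the most different probe-set. PER1, the third gene of this list, had 0.99 and -0.31 in its probe-sets and was not called over all weeks. The first of these was higher in crown at 3 weeks (1.09, adjusted p = 6.8e-05) and at 5 weeks (1.14, adjusted p = 4.8e-05).

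**Figure D3:**
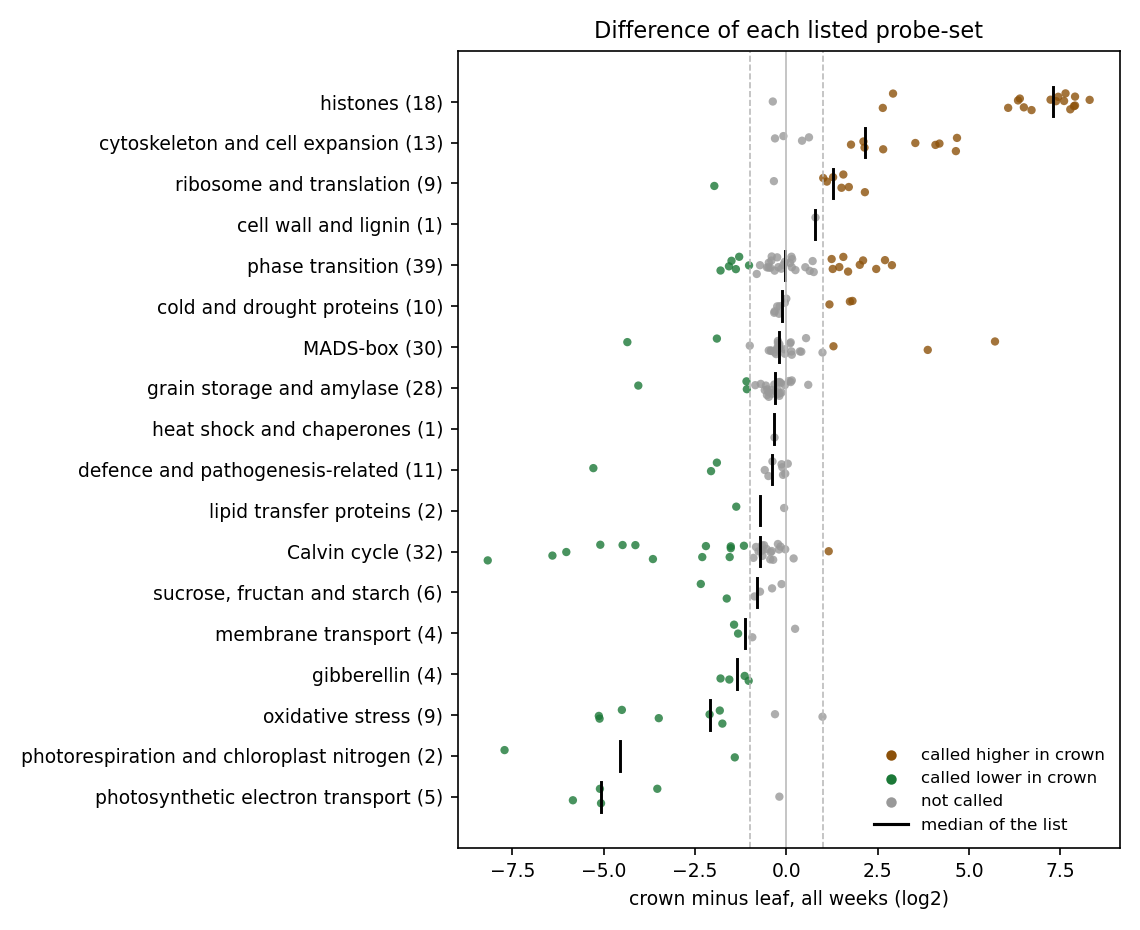
Log2 difference crown minus leaf over all weeks of each probe-set of 18 gene lists, listed by median, with the number of probe-sets in brackets; brown points are called higher and green points lower in crown, grey points are not called, black bars are list medians and dashed lines mark 2-fold. Histones lie at the top with a median of 7.3 and photosynthetic electron transport (OEE1, OEE2 and petC) at the bottom with -5.07.

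Defence, sugar and transport genes were called lower in crown or not at all. Of 11 defence probe-sets for 7 genes, 3 were lower, 0 were higher and 3 lower ones held at every week. The array had 9.72%, 16.1% and 6.13% in the same order. PR5, a thaumatin-like protein, had 0.188 and 0.227 in crown at 3 weeks, 0.124 and 0.146 at 5 weeks and 0.381 and 0.357 at 9 weeks. In leaf it had 2.426 and 2.562 at 3 weeks, 11.37 and 6.69 at 5 weeks and 27.2 and 27.54 at 9 weeks. The leaf value was higher at each later week, and the tissue difference was -3.59, -6.02 and -6.21. The change from 3 to 9 weeks was -2.62 ± 0.29 (adjusted p = 6.2e-05). Both probe-sets of the xylanase inhibitor gene xip did the same, with 0.341 to 0.394 in crown and 0.987 to 3.09 in leaf in the first, and its difference was -1.37, -1.75 and -3.06. The thionins THI1.1, THI1.2, THI1.3 and TTHV, small antimicrobial proteins, had differences of -0.59 to 0.04 and were not called, nor was Glc1, at -0.49 and -0.03, though its first probe-set was lower at 9 weeks (-1.28).

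In the list of sucrose, fructan and starch, 2 of 6 probe-sets were lower, where the array had 9.72%. Both were for the fructan exohydrolase 6-FEH, which breaks down fructan, and its other probe-set was not called over all weeks (-0.87). The more different one had 0.489 to 0.695 in crown and 1.51 to 6 in leaf, highest in leaf at 9 weeks, with differences of -2.22, -1.62 and -3.18. The other fructan exohydrolase 1-FEH (-0.39), the starch synthase GBSS-I (-0.72) and AGP-S of starch synthesis (-0.13) were not called. Of 4 membrane transport probe-sets 2 were lower, where the array had 9.72%. These were 2 of the 3 for H+-ATPase, the proton pump, lower by 1.32 and 1.43 on the log2 scale. The third was not called (-0.93), nor was the malate channel gene ALMT1-1, at 0.24. The lipid transfer protein gene LTP3 had 1 of 2 probe-sets lower, by 1.37, and the other at -0.06. The small heat shock gene hsp16.9A was not called, at -0.33.

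Among 28 probe-sets for 15 genes of grain storage proteins and amylase, 3 were lower in crown, a share close to the 9.72% of the array, and 25 were not called over all weeks, at -0.85 to 0.60. Of those 25, Glu-D3 (-1.51) and Gli-D2-1 (-1.26), genes of a glutenin and a gliadin, each had 1 probe-set lower at 3 weeks. The 3 lower ones over all weeks were amy1, Serpin-Z2B and ATI. The amylase gene amy1 had 0.596 to 0.894 in crown and, in leaf, 23.25 and 18.72 at 3 weeks, 15.25 and 16.09 at 5 weeks and 6.04 and 4.716 at 9 weeks. Its difference was -4.05 ± 0.30 (adjusted p = 4.4e-08), and it was smaller at 9 weeks by 2.33 ± 0.26 (adjusted p = 6.3e-05). Serpin-Z2B, a protease inhibitor, and ATI, an amylase inhibitor, lay close to the 2-fold limit, at -1.09 and -1.08.

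Cold and drought proteins did not move as a group. Of 10 probe-sets for 5 genes 3 were higher in crown and 1 held at every week, where the array had 16.1% and 11.0%. All 3 were for Rab15, a dehydrin-type gene responsive to abscisic acid. The Rab15 probe-set that held had 1.306 and 1.36 in crown at 3 weeks, 2.978 and 2.058 at 5 weeks and 2.798 and 2.816 at 9 weeks. Leaf values were 0.542 to 0.687, in no order of the weeks. The difference was 1.03, 2.02 and 2.17 at the 3 weeks, and the change from 3 to 9 weeks was 1.15 ± 0.25 (adjusted p = 0.00453). The third Rab15 probe-set had 4.787 and 4.117 in crown at 9 weeks, against 1.093 and 1.046 in leaf. The acidic dehydrin COR410 (-0.33) and the LEA genes EM, EMH2 and LEA (-0.32 to 0.00) were not called.

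Gibberellin biosynthesis genes were lower in crown. Gibberellins promote stem growth, and GA 20-oxidases make the precursors of the active forms. All 4 probe-sets for 3 GA 20-oxidase genes were called lower, and 3 held at every week, where the array had 9.72% and 6.13%. GA20ox1b had 0.469 to 0.654 in crown and, in leaf, 2.212 and 2.529 at 3 weeks, 2.265 and 2.25 at 5 weeks and 1.197 and 1.228 at 9 weeks. The tissues did not overlap, and the difference was -1.80 ± 0.16 (adjusted p = 2.4e-07). GA20OX1-A differed by -1.29, -2.22 and -1.17 at the 3 weeks, and the probe-sets of GA20ox1d by -1.14 and -1.03 over all.

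Ent-kaurene synthase and ent-kaurene oxidase, which act earlier in the same pathway, were called lower in crown over all weeks, and at 3 weeks neither was called, at -0.70 and -0.74. Ent-kaurene synthase had 0.816 and 0.678 in crown at 3 weeks, 0.996 and 0.849 at 5 weeks and 0.74 and 0.953 at 9 weeks. In leaf it had 1.004 and 1.461 at 3 weeks, 2.674 and 1.592 at 5 weeks and 12.1 and 7.728 at 9 weeks. The crown stayed level while the leaf was highest at 9 weeks, and the change in the difference was -2.82 ± 0.39 (adjusted p = 0.00025). Without the 9-week arrays the difference was -0.93 and below the 2-fold limit. Ent-kaurene oxidase had 0.897 and 0.713 in crown at 9 weeks, against 5.181 and 5.281 in leaf, and its change was -1.97 ± 0.22 (adjusted p = 6.4e-05). The second probe-set of ent-kaurene synthase was called at 9 weeks alone (-1.45) and not over all weeks, at -0.81.

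The study listed probe-sets for genes of the phase transition, most of them named after Arabidopsis genes that they resemble, and roles given here are those known in Arabidopsis. Including both ent-kaurene genes, 39 probe-sets for 26 genes were found. Of these 10 were higher and 6 lower in crown, and the median difference was -0.04. Held at every week were 6 higher ones, for FVE, PHYA, VIL2, TFL1 and FCA, and 1 lower one, for ELF3. The counts of 10 and 6 of 39 stand against 16.1% and 9.72% of the array. Those of 6 and 1 held at every week stand against 11.0% and 6.13%.

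FVE, a chromatin protein of the autonomous flowering pathway, had 2.27 to 2.87 in crown and 0.274 to 0.504 in leaf. Its difference was 2.89 ± 0.16 (adjusted p = 2e-09), and 3.25, 3.23 and 2.20 at the 3 weeks, as leaf values were highest at 9 weeks. Phytochrome A, PHYA, a receptor of far-red light, had 3.58 to 4.40 in crown and 0.443 to 0.897 in leaf, a difference of 2.70 ± 0.12 (adjusted p = 3.8e-10). TFL1, which keeps the Arabidopsis apex vegetative, had 2.806 and 2.737 in crown at 3 weeks, 2.222 and 2.651 at 5 weeks and 1.546 and 1.599 at 9 weeks, against 0.435 to 0.576 in leaf. Its crown values were thus lowest at 9 weeks and still above all leaf values. VIL2, a relative of the vernalisation gene VIN3, was higher by 2.46 and 2.01 in its probe-sets. VIL3 (1.69), FCA (1.56, in 1 of its 6 probe-sets), PDF2 (1.45), the SUMO protease ESD4 (1.27) and the Polycomb gene EMF2 (1.24) were higher over all weeks, and of these FCA held at every week. The remaining FCA probe-sets were not called, at -0.44 to 0.75.

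The lower probe-sets were those of the ent-kaurene genes and of the circadian clock. ELF3, a clock gene, had 0.602 to 0.733 in crown and 1.31 to 1.79 in leaf, with differences of -1.26, -1.33 and -1.29 at the 3 weeks. Its second probe-set was not called over all weeks, at -0.49. GIGANTEA, GI, had 0.246 and 0.269 in crown at 5 weeks, against 1.057 and 1.084 in leaf, and differed by -1.36, -2.06 and -0.73. The probe-sets of LHY differed by -0.07, -1.96 and -1.05, and by -0.76, -1.82 and -1.91. At 5 weeks crown arrays of the first had 0.952 and 1.098, against 3.907 and 4.024 in leaf. In both LHY probe-sets crown and leaf overlapped over all weeks. TOC1, of the same clock, was not called over all weeks in its 5 probe-sets, at -0.53 to 0.52, but 1 of them was higher in crown at 5 weeks, by 1.26 (adjusted p = 0.00019). All tissue was harvested in the middle of the light period, whose length differed between weeks, and its part in the differences of clock genes was not tested. CO (-0.41), FT (-0.72), FD (-0.48) and the gibberellin signalling gene RGA1 (0.16) were not called. In all, 23 probe-sets of the list were not called, with differences between -0.81 and 0.75.

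**Figure D4:**
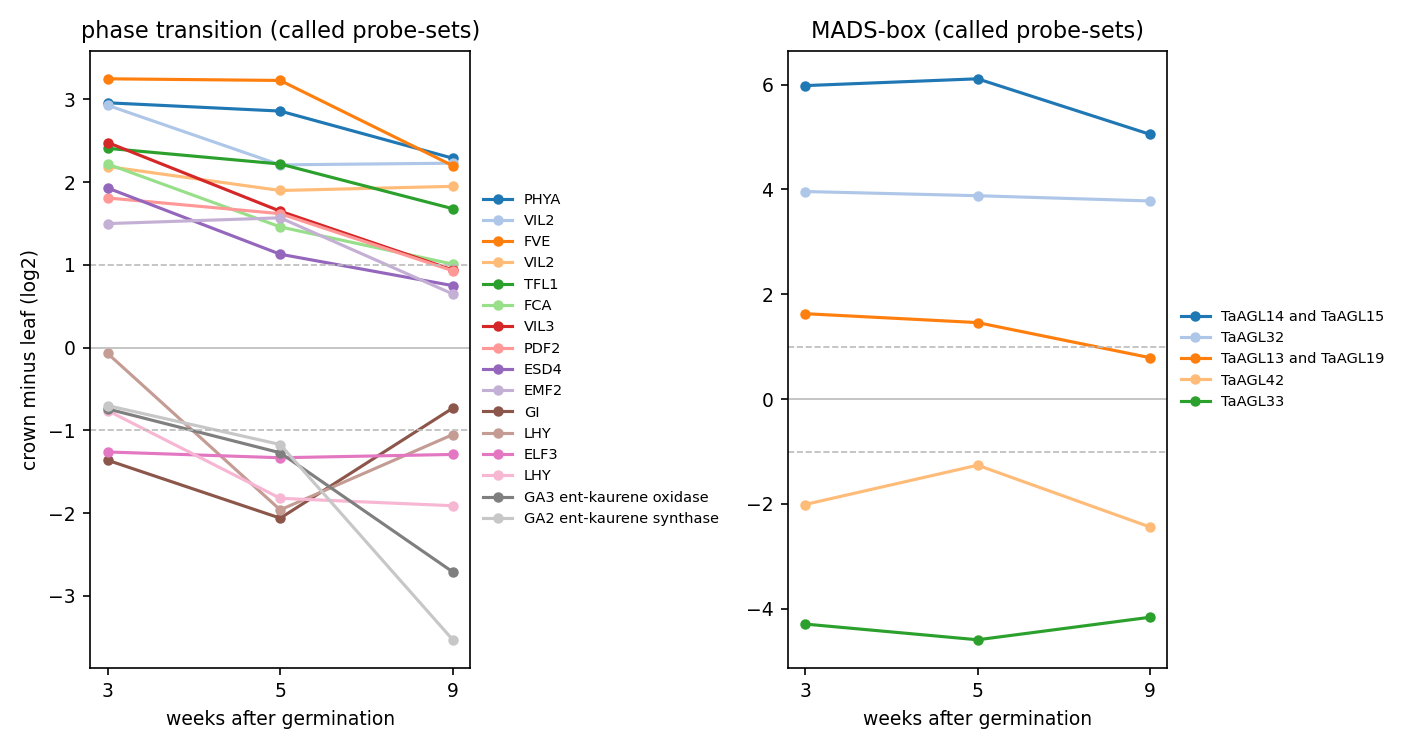
Log2 difference crown minus leaf at 3, 5 and 9 weeks after germination of the probe-sets called over all weeks, for the phase-transition list (left, 16 probe-sets) and the MADS-box list (right, 5); dashed lines mark 2-fold. FVE and PHYA lie between 2.20 and 3.25, the ent-kaurene genes reach -2.71 and -3.53 at 9 weeks, and TaAGL32 and TaAGL33 are nearly level.

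Of 30 MADS-box probe-sets, read as 24 genes or groups of genes, 3 were higher and 2 lower in crown, below the shares of 16.1% and 9.72% of the array. The other 25 were not called over all weeks, at -1 to 0.99, and the median was -0.20. Among these TaAGL22 was lower in crown at 3 weeks, by 1.72 on the log2 scale, and TaAGL7 higher, by 1.13. A second probe-set of TaAGL13 and TaAGL19 was higher at 3 weeks and at 5 weeks, by 1.3 and 1.08. TaAGL14 and TaAGL15, read by 1 probe-set, had 3.308 and 3.472 in crown at 3 weeks, 3.042 and 3.279 at 5 weeks and 2.132 and 1.929 at 9 weeks. Leaf values were 0.04 to 0.067, and the difference was 5.71 ± 0.16 (adjusted p = 2.9e-12), the largest of the list. TaAGL32 had 2.12 to 3.67 in crown and 0.14 to 0.261 in leaf, both highest at 5 weeks, with 3.96, 3.88 and 3.78 as its differences at the 3 weeks. The third was the probe-set of TaAGL13 and TaAGL19, at 1.29 ± 0.13 (adjusted p = 1.3e-06), which was not called at 9 weeks (0.79).

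TaAGL33 and TaAGL42 were lower in crown at every week. TaAGL33 had 0.771 to 1.02 in crown and 13.2 to 23 in leaf, a difference of -4.35 ± 0.11 (adjusted p = 7.1e-13). The probe-set that reads TaAGL33 together with TaAGL41 was not called, at -0.23. TaAGL42 had 0.258 and 0.258 in crown at 3 weeks, 0.417 and 0.434 at 5 weeks and 0.658 and 0.688 at 9 weeks. In leaf it had 1.088 and 0.999 at 3 weeks, 1.176 and 0.882 at 5 weeks and 3.706 and 3.601 at 9 weeks. Both tissues were highest at 9 weeks, and the change in their difference, -0.43, was not called. The 4 probe-sets of TaVRN1, the vernalisation-responsive promoter of flowering, were not called over all weeks, at -0.26 to 0.10. In 2 of them, singled out after their values were seen, the difference was -0.63 and -1.14 at 3 weeks and 1.33 and 1.14 at 9 weeks. With limma these were changes of 1.97 ± 0.23 (adjusted p = 0.0001) and 2.27 ± 0.34 (adjusted p = 0.00044). The other 2 moved in the same direction, by 1.11 and 0.96, and these changes were not called. At 9 weeks they had 0.35 and 0.34 and were not called either.

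Among all genes with a symbol, the 10 largest differences that held at every week with crown the higher were those of histones, of 1 MADS-box probe-set and of genes without a name. Besides H2A-9, wcH2B-8, H2A-3 and H2A-2, and LOC100125700 (the probe-set of TaAGL14 and TaAGL15), these were LOC542908, LOC543455, LOC606361, LOC543150 and LOC606359. LOC542908 had 8.075 and 8.858 in crown at 3 weeks, 20.18 and 23.76 at 5 weeks and 54.93 and 56.27 at 9 weeks, against 0.071 to 0.166 in leaf. LOC606359 had 41.54 and 43.81 in crown at 3 weeks and 7.167 and 4.69 at 9 weeks, against 0.522 to 0.724 in leaf. Both were far above the leaf at every week, while the crown values moved opposite ways. The remaining 3 differed by 6.92 (LOC543455), 6.76 (LOC606361) and 5.36 (LOC543150). The other probe-sets of LOC542908 reach down to a difference of 0.14.

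The 10 largest in the other direction included PRK, CAT1, FBP and rbcl, and LOC732707, LOC542880, LOC542855, LOC543422, LOC100125679 and LOC542947. LOC732707 was at 0.01 on all 6 crown arrays and at 2.80 to 3.70 in leaf, so its difference of -8.36 rests on the lowest value of the table. The 4 probe-sets of LOC732707 ranged from -8.36 to 0.00, and the 3 of LOC542880 reached -1.80. LOC543422 had 0.033 to 0.212 in crown, against 3.028 and 2.648 in leaf at 3 weeks and 31.65 and 33.16 in leaf at 9 weeks. LOC542947 had 0.122 to 0.346 in crown and ran the other way in leaf, with 20.9 and 23.82 at 3 weeks and 7.357 and 7.565 at 9 weeks. In LOC542947 both tissues were lower at 9 weeks and the difference stayed at -6.06, -5.72 and -5.85. LOC542880 differed by -7.61, with 0.013 to 0.073 in crown and 3.42 to 7 in leaf.

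Between 3 and 9 weeks the tissue difference itself changed in 7946 probe-sets. It moved towards crown in 2388 (3.90%) and towards leaf in 5558 (9.08%), so 30.1% of the changes were towards crown. This share was 43.4% after quantile normalisation and 18.1% after centring each array on its median, so the balance depends on the scaling. Of the probe-sets that moved towards leaf, 1900 were higher in crown at every week. Of those that moved towards crown, 746 were lower in crown at every week. Over the 6754 probe-sets higher in crown at every week the median difference was 2.5 at 3 weeks, 2.38 at 5 weeks and 1.77 at 9 weeks, and it was smaller at 9 than at 3 weeks in 83.7% of them. Their median level in crown was 2.06, 2.01 and 1.67 at the 3 weeks and in leaf 0.37, 0.388 and 0.473. Over the 3750 that were lower the median was -2.41, -2.44 and -2.32, and 60.9% were smaller at 9 weeks. After quantile normalisation these shares were 54.8% and 53.5%, and after centring 87% and 57.5%. The spread of values was narrowest at 9 weeks in both tissues, and its part in these shares was not tested.

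**Figure D5:**
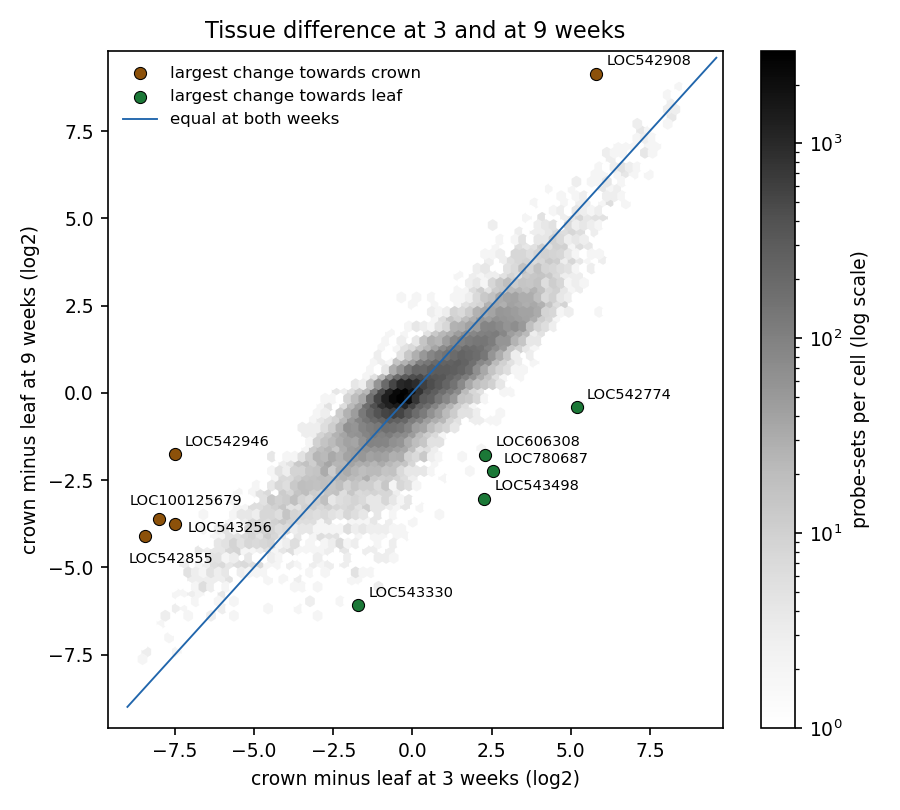
Log2 difference crown minus leaf at 3 weeks (horizontal) against 9 weeks (vertical) for all 61179 probe-sets (grey cells, darker with more probe-sets, log scale), with the 5 genes of largest change towards crown (brown) and towards leaf (green); the blue line marks equal differences. LOC542946 lies at -7.51 and -1.75, and LOC542774 at 5.19 and -0.42.

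By list, 9 of 39 phase-transition probe-sets moved towards leaf and 0 towards crown, where the array had 9.08% and 3.90%. Towards crown moved 3 of 5 probe-sets of OEE1, OEE2 and petC and 5 of 32 of the Calvin cycle, and 0 of either towards leaf. Among other lists, 4 of 9 oxidative stress and 3 of 10 cold and drought probe-sets moved towards crown, and 0 towards leaf. Towards leaf moved 4 of 11 defence and 3 of 18 histone probe-sets, and 0 towards crown. Of the 9 translation probe-sets 3 moved towards leaf and 1 towards crown. After quantile normalisation FVE and the named genes of both photosynthesis lists that had moved, OEE2, petC, OEE1, PRK and FBP, were no longer called. Nor were eIF-2-beta and Eif4B of the translation list. Over the array, quantile normalisation left 3318 probe-sets moved towards leaf and 2545 towards crown. The counts by list were not taken again under that scaling, and list members not named by the rules were not followed.

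The genes of largest change are without a name in the annotation. Towards crown they were LOC542946 (5.76 ± 0.20, adjusted p = 3.1e-08), LOC100125679 (4.38), LOC542855 (4.32), LOC543256 (3.75) and LOC542908 (3.32). For LOC542946 the crown arrays had 0.01 and 0.01 at 3 weeks, 0.013 and 0.01 at 5 weeks and 0.691 and 0.694 at 9 weeks, against 1.75 to 2.36 in leaf at all weeks. LOC100125679 and LOC542855 likewise were at 0.01 on the 4 crown arrays of 3 and 5 weeks, and at 0.329 and 0.305, and 0.294 and 0.247, on those of 9 weeks. In these 3 genes the early crown arrays were at or near the lowest value of the table, so the sizes of the changes are not well bounded. Towards leaf they were LOC542774 (-5.60 ± 0.23, adjusted p = 5e-08), LOC543498 (-5.29), LOC780687 (-4.82), LOC543330 (-4.36) and LOC606308 (-4.06). In LOC542774 the crown was level, at 1.13 to 1.41, and the leaf had 0.031 and 0.034 at 3 weeks, 0.293 and 0.202 at 5 weeks and 1.716 and 1.708 at 9 weeks. LOC543498 had 1 to 1.23 in crown at all weeks, against 0.199 and 0.272 in leaf at 3 weeks and 8.891 and 8.758 in leaf at 9 weeks. In each of these 5 genes the leaf was highest at 9 weeks.

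Few tissue differences turned round. Of 61179 probe-sets, 35 were higher in crown at 3 weeks and lower at 9 weeks, and 5 the reverse, 1 of which was a TaVRN1 probe-set (-1.14 and 1.14). With quantile normalisation these counts were 31 and 5, and with centring 43 and 2. Those with a symbol were 11 probe-sets for 8 genes, LOC543003, LOC606308, LOC543197, LOC543498, LOC780687, LOC543201, LOC778385 and LOC543338, all higher in crown at 3 weeks and lower at 9 weeks. For LOC543003 the crown was 0.999 to 1.44 on all arrays while the leaf had 0.456 and 0.545 at 3 weeks and up to 2.14 at 9 weeks. Of these 8 genes, LOC543338 had a crown level that differed most between weeks, with 2.276 and 2.71 at 3 weeks and 0.631 and 0.555 at 9 weeks.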

How the data were processed

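RNA of Harnesk crown and leaf was hybridised to Affymetrix Wheat Genome arrays. Each deposited value is a linear ratio: the authors normalised the chips by RMA, then divided each gene by a median (over which arrays is not given in the sources used here). The lowest value is 0.01. Number of arrays, not depth, limits precision. In the fit of condition means, p-values measure the spread between pools of plants labelled as biological replicates. In the all-weeks fit, the spread behind the SE and p-values also holds any change of the tissue difference between weeks. Rows of the Harnesk arrays follow the probe-set identifiers: on each array neighbouring probe-sets of 1 transcript cluster correlated more than other neighbours, by 0.59 to 0.677. No 2 arrays held identical values, and replicate differences correlated over 0.1 in 0 of 15 pairs of conditions, so replicate numbers were not used as pairs.

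Log2 was taken without further normalisation, and 111 control probe-sets were left out. Crown minus leaf was fitted with limma 3.58.1 in R 4.3.3 with week as a factor. A second fit of the 6 condition means gave each week and the change from 3 to 9 weeks, with Benjamini-Hochberg adjustment over 61179 probe-sets throughout. Calls needed an adjusted p below 0.05 and 2-fold. Gene names came from the array annotation and the RefSeq gene table (IWGSC CS RefSeq v2.1, in which 770 of 771 genes were found), and flowering genes from the study's identifiers. Of 22 lists searched, 16 had members. Lists carry no test. Named were up to 4 called genes per list and direction, the 10 largest held at every week and the 5 largest changes between weeks per direction among genes with a symbol, and any list gene called in opposite directions. Other list genes are given as values to account for every member. Members and lists were chosen with earlier results of these data known.

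Alternatives were quantile normalisation, centring, a filter on values at 0.01, a variance trend, the replicate block, the methods' t-test, no week term, inclusion of the control Solstice arrays, no fold limit, 1 probe-set per gene, leaving out each array and, added after seeing the data, leaving out the 9-week arrays. The fits were tested on simulated data. Paragon and vernalised Solstice arrays, whose rows do not follow the identifiers, were not used here.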

Additional observations from a re-analysis of the deposited data

Results flagged for a closer look

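In 134 groups of 6 arrays (each tissue of 67 named probe-sets), 1 array lay far from the rest. It was leaf 3 weeks replicate 2 of the rbcl probe-set that was higher in crown, at 0.848. Chance marks about 1 in 20 groups of 6 like arrays. These groups span 3 weeks, so that rate does not apply to them as it stands.

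The tissue difference changed between 3 and 9 weeks, by the interaction test of limma, for 36 of the 67 probe-sets named by the rules. Genes given for other reasons, among them TaVRN1, TUBA and GLU1A, were not part of this check. Values are the log2 difference at 9 weeks minus that at 3 weeks. Towards leaf were LOC542774 (-5.60), LOC543498 (-5.29), LOC780687 (-4.82), LOC543330 (-4.36), LOC606308 (-4.06), LOC606359 (-3.03), ent-kaurene synthase (-2.82), PR5 (-2.62), ent-kaurene oxidase (-1.97), xip (-1.70), LOC543422 (-1.61), LHY (-1.15), eIF-2-beta (-1.09), Eif4B (-1.09) and FVE (-1.05). Towards crown were PRK (1.00), GA20ox1b (1.09), Rab15 (1.27), petC (1.29), OEE1 (1.3), LOC606361 (1.42), FBP (1.47), CAT1 (1.47), tubb1 (1.48), OEE2 (1.48), RPL9 (1.72), Prx1 (1.80), tubb2 (2.22), amy1 (2.33), LOC543150 (2.83), LOC542880 (3.13), LOC542908 (3.32), LOC543256 (3.75), LOC542855 (4.32), LOC100125679 (4.38) and LOC542946 (5.76). None of these 36 changed sign under quantile normalisation or centring; 26 were also called after quantile normalisation and 34 after centring. Lost under quantile normalisation were OEE2, petC, OEE1, PRK, FBP, CAT1, eIF-2-beta, Eif4B, GA20ox1b and FVE, and PRK and GA20ox1b were lost under centring.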

How the results depend on the processing

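Without a fold limit 40982 probe-sets were called over all weeks, 41.8% of them higher in crown, where the 2-fold limit gave 62.3%, and 20353 held at every week. With 1 probe-set per gene 55 list members were called, in place of 100. Each of these alternatives changes what can be called or counted, and why the share higher in crown differed was not tested. Leaving out each array in turn gave 15440 to 16297 calls over all weeks, 98 to 103 among list members, 18591 to 20542 at 3 weeks, 17219 to 17910 at 5 weeks, 13308 to 13862 at 9 weeks, 10236 to 10736 held at every week, and 7312 to 10173 changes between 3 and 9 weeks, the last highest without leaf 3 weeks replicate 1. With the replicate block the counts were 15770, 100, 18890, 17401, 13416, 10506 and 8004 in the same order, so the block moved no count by over 1.5 times. The methods' t-test gave 15691 calls unadjusted and 15633 after Benjamini-Hochberg adjustment. Without the 9-week arrays, an alternative chosen after seeing the data, 17718 were called over all weeks.

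Of the named genes no difference turned round in any alternative run. ATI fell below the 2-fold limit after centring (-0.99), without leaf 3 weeks replicate 1 and without leaf 5 weeks replicate 2 (-0.92), Serpin-Z2B after centring, and ent-kaurene synthase without the 9-week arrays (-0.93). Centring left 1 of 3 grain probe-sets called, and COMT1 was called without the 9-week arrays (1.03). The filter left 61148 probe-sets and gives no value for PRK, LOC732707 and other genes at 0.01. What limits precision is 2 arrays per tissue and week, and a difference against a value at 0.01 is not well bounded.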

Other observations

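Some named genes outside the lists were chosen after their values were seen. Higher in crown at every week were the lectin gene WGA2 (wheat germ agglutinin), by 3.85 ± 0.15 log2 (adjusted p = 8.5e-11 with limma), the immunophilin gene FKBP70 by 2.98 ± 0.22 (adjusted p = 5.5e-08), and AdSS of purine synthesis by 1.97 ± 0.12 (adjusted p = 9.5e-09). Lower in crown at every week were GAPN, a non-phosphorylating glyceraldehyde phosphate dehydrogenase, at -5.60 ± 0.14 (adjusted p = 7.3e-13), the thioredoxin gene Trx-M at -5.42 ± 0.20 (adjusted p = 3.5e-11) and both probe-sets of cys1, at -1.70 and -1.67. The difference of cys1 was -1.67, -1.73 and -1.70 at 3, 5 and 9 weeks in the first of its probe-sets. GLU1A differed by 0.00 at 3 weeks, 1.25 at 5 weeks and 2.52 at 9 weeks, a change of 2.52 ± 0.22 (adjusted p = 1.3e-05).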
